A study of Rattus norvegicus with 22 samples.

Results

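The CSF1 receptor axis and its myeloid regulators were followed here as 7 genes in rat hippocampus after lateral fluid percussion (LFP) traumatic brain injury (TBI). They were taken by symbol from the gene count table: the receptor Csf1r, its ligands Csf1 and Il34, and the transcription factor genes Spi1, Irf8, Irf5 and Runx1. All 7 were among the 17172 genes of the table, and all 7 were among the 12875 genes with enough counts to be tested. The table names genes by symbol only, so no position in the build of the reads was assigned.

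Bulk RNA-seq covered the ipsilateral hippocampus of 14 adult male Sprague-Dawley rats. Rats had either LFP injury or sham surgery with anesthesia and no percussion, and tissue was taken 1 day or 14 days later. The groups were sham day 1 (n = 2), TBI day 1 (n = 4), sham day 14 (n = 4) and TBI day 14 (n = 4). Each sample came from 1 rat, and no transgene or drug treatment was compared. Sham and injured rats alike had isoflurane anesthesia and a bupivacaine injection under the scalp skin at surgery. The whole tissue was read, so fewer cells of a type and less RNA per cell cannot be told apart.

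CSF1R is a receptor tyrosine kinase of microglia, monocytes and macrophages, and these cells depend on it for survival and proliferation. Its ligands are CSF1, made by glia and endothelium among others, and IL-34, made in the brain mainly by neurons. Spi1 encodes PU.1, the ETS factor that sets up the macrophage program and drives Csf1r itself. RUNX1 acts earlier in blood formation and also binds Csf1r regulatory DNA. IRF8 partners with PU.1 in microglia and monocytes, and IRF5 drives inflammatory cytokine genes in macrophages.

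Total counts per sample ranged from 15065540 to 23743703, and replicates of each group differed by more than counting noise. Expression is given as log2 CPM, the log2 of counts scaled to a common library size (CPM) after TMM correction, with a prior count of 2. A gene was called a differentially expressed gene (DEG) when its edgeR adjusted p-value, over all tested genes, was under 0.05, and log2 fold changes are given with their standard error (SE). Choroid plexus marker genes stood apart in 3 libraries. Their summed level was 10943.5 CPM in sham day 1 replicate 1, 8675 CPM in TBI day 14 replicate 3 and 2062 CPM in TBI day 14 replicate 2, against 114 to 240 CPM in the others. Neuron markers, which check the labelled tissue, were abundant in all 14 samples, between 3707 and 11756 CPM in sum. With only 2 sham rats at day 1, replicate 1 of which carried the choroid plexus signal, values without either sham day 1 rat are given where they changed a call.

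The promoters of Irf8 and Irf5 are shown because the log2 CPM of these 2 genes had the highest correlation of any pair of members over the 14 rats (Pearson's r of 0.94). RefSeq promoter sequences of build GRCr8 were matched by symbol for 4 of the 7 members, namely Csf1r, Irf8, Irf5 and Runx1. The 250 bases before each start are written 5′ to 3′ on the gene's own strand, which is the plus strand of chr19:65699034-65699283 for Irf8 and of chr4:59093205-59093454 for Irf5. No letters are in capitals because none of the motifs searched occurred in either window.
Irf8: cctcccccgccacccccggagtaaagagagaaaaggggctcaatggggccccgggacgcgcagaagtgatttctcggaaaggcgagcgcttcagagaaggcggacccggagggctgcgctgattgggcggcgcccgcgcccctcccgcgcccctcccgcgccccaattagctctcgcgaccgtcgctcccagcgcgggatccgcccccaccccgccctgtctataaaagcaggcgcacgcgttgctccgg
Irf5: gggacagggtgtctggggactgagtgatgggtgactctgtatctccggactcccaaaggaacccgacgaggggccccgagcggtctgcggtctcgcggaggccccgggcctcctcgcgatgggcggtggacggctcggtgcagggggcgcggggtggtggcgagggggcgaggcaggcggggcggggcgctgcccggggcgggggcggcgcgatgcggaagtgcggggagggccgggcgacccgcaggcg
The motifs, searched on both strands, were GAGGAA (a PU.1 core with its flank), an ETS-IRF composite element, an IRF element of paired GAAA repeats, and TGTGGT (a RUNX site). The composite and the IRF element can overlap. Of 33469 promoter windows of the same length, 23.3% held GAGGAA, 2.48% held the composite element, 3.41% held the IRF element and 14.5% held TGTGGT. The Csf1r window held 2 matches of GAGGAA, both on the strand opposite to the gene and beginning 229 and 95 bases before the start. The Runx1 window held none of the 4 motifs.

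Of the 7 genes, 4 were DEGs at day 1 and 5 at day 14, and each of these was upregulated. At day 1 these were Csf1, Spi1, Irf8 and Runx1, where 19.1% of all tested genes were called, 11.2% higher and 7.93% lower. At day 14 they were Csf1r, Csf1, Spi1, Irf8 and Irf5, where 4.43% of all tested genes were called, 4.07% higher and 0.365% lower. At day 1 every injured rat lay above both sham rats for 4 of the 7 members, against 16.7% of all tested genes, and below them for Il34, against 14.1%. At day 14 every injured rat lay above every sham rat for 6 of the 7, against 9.13%. The median log2 fold change over the 7 members was 1.00 at day 1 and 1.14 at day 14, against -0.02 and -0.03 over all tested genes.

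**Figure D1:**
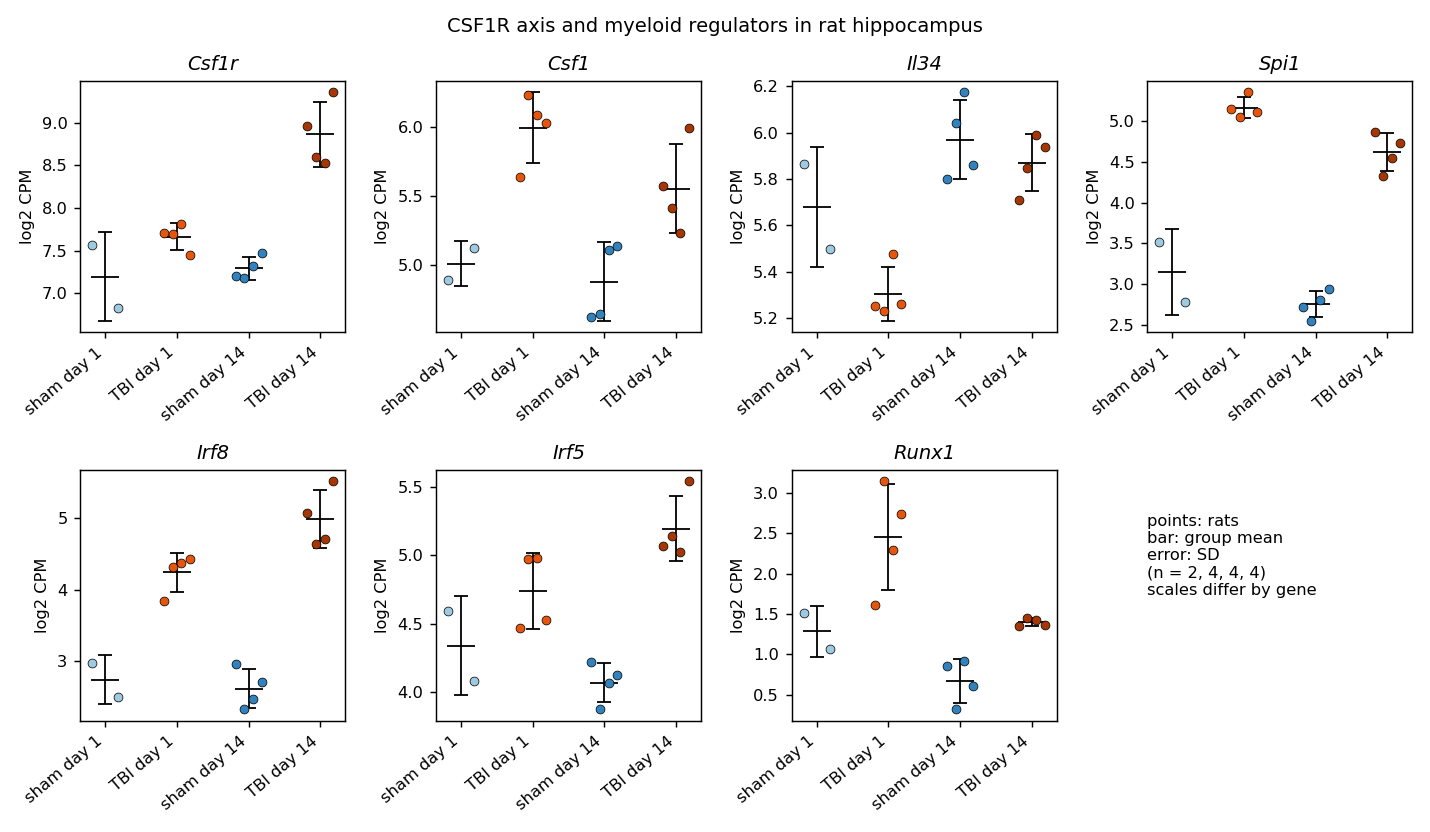
Expression of the 7 genes (log2 CPM, vertical axes, scale set per gene) in each rat of the 4 groups, with group mean and SD. Csf1r, Irf8 and Irf5 had their highest group mean in TBI day 14, Csf1, Spi1 and Runx1 in TBI day 1, and Il34 in sham day 14.

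Csf1r, the receptor, was upregulated at day 14. Its level in the sham day 1 rats was 7.56 and 6.83 log2 CPM, and in the TBI day 1 rats it was 7.71, 7.70, 7.81 and 7.44. These groups overlapped, because the higher sham rat lay above the lowest injured rat. At day 14 the sham rats had 7.20, 7.18, 7.32 and 7.47 log2 CPM and the TBI rats 8.96, 8.60, 8.53 and 9.36. All 4 injured rats stood more than 1 log2 unit above all 4 sham rats. Csf1r was 3.04-fold higher in TBI at day 14, with a log2 fold change of 1.60 ± 0.19 (SE; edgeR adjusted p = 0.000111), and it remained a DEG under all 24 alternatives, including without TBI day 14 replicate 2 (1.69) or replicate 3 (1.72). At day 1 the log2 fold change was 0.43 (SE 0.23, adjusted p = 0.21). That estimate turned on the sham rats: it was 0.84 (adjusted p = 0.0443) without sham day 1 replicate 1 and 0.11 (adjusted p = 0.864) without replicate 2.

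The TBI effect on Csf1r was larger at day 14 than at day 1 by 1.17 on the log2 scale (SE 0.29, edgeR adjusted p = 0.0387). This test of the difference called 3.68% of all tested genes, and Csf1r was the 1 member called. The call was lost in 11 of 22 alternatives, among them limma-voom (1.10, adjusted p = 0.0612), a choroid plexus covariate (1.23, adjusted p = 0.109) and the fit without sham day 1 replicate 1 (0.76, adjusted p = 0.151). It was also lost without TBI day 1 replicate 2 (1.18), without any 1 of the 4 sham day 14 rats (1.14 to 1.24) and without TBI day 14 replicate 1 (1.15) or replicate 4 (0.98). In the direct comparison of the injured groups, with the spread estimated over all 14 samples, Csf1r was higher in TBI day 14 than in TBI day 1 by 1.23 (SE 0.19, edgeR adjusted p = 0.000189), without overlap. In RefSeq's GRCr8 annotation Csf1r lies next to Pdgfrb, another receptor of its class, whose log2 fold changes of 0.57 at day 1 and 0.04 at day 14 did not pass the test.

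**Figure D2:**
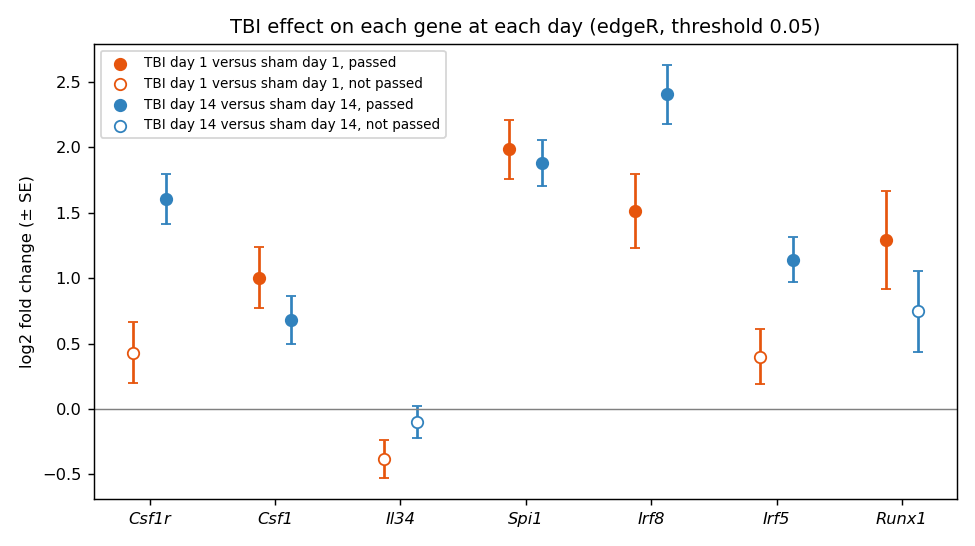
Log2 fold change of TBI over sham (vertical axis, bars are SE) for each of the 7 genes at day 1 and day 14, filled where the edgeR test passed. Spi1 and Irf8 passed at both days with values of 1.51 to 2.41, Csf1 passed at both days with 1.00 and 0.68, and Il34 lay below 0 at both days without passing.

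Csf1, the ligand found in most tissues, was upregulated at both days. It was at 4.89 and 5.13 log2 CPM in sham day 1 and at 5.64, 6.24, 6.09 and 6.03 in TBI day 1, with every injured rat above both sham rats. The log2 fold change was 1.00 (SE 0.23, edgeR adjusted p = 0.00835), a 2.00-fold increase. Without sham day 1 replicate 1 it was 0.89 with an adjusted p-value of 0.0532. At day 14 the levels were 4.63, 4.65, 5.11 and 5.14 in sham and 5.57, 5.41, 5.24 and 5.99 in TBI, and the groups again did not overlap although the gap was narrow. The increase was 0.68 (SE 0.18, edgeR adjusted p = 0.0494), just inside the threshold, and the call was lost in 14 of 24 alternatives, over which the adjusted p-value ran from 0.0146 to 0.205. Among them were limma-voom (0.67, adjusted p = 0.0714), median-of-ratios scaling (0.68) and the fits without any 1 of the sham day 14 rats (0.60 to 0.77). The fits without TBI day 14 replicate 1 (0.68), replicate 2 (0.73) or replicate 4 (0.51), or without TBI day 1 replicate 2, 3 or 4 (0.68 each), lost it too. The effects at the 2 days differed by -0.32 (SE 0.29, adjusted p = 0.576), which did not pass.

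Il34, the ligand made by neurons, was not upregulated at either day. Its levels were 5.86 and 5.50 log2 CPM in sham day 1 and 5.25, 5.23, 5.48 and 5.26 in TBI day 1. All 4 injured rats lay below both sham rats, but the nearest pair differed by little, and the change of -0.38 (SE 0.15, edgeR adjusted p = 0.0806) did not pass. With all 6 sham rats of both days as 1 group it was -0.58 (edgeR adjusted p = 0.00305), in a fit that called 34.4% of all tested genes at day 1. Without sham day 1 replicate 1 the change was -0.19, and without replicate 2 it was -0.56. The day 14 levels were 5.80, 6.04, 6.17 and 5.86 in sham and 5.71, 5.85, 5.99 and 5.94 in TBI, with overlap and a change of -0.10 (SE 0.12, adjusted p = 0.85). Between the injured groups Il34 was higher at day 14 than at day 1 by 0.57 (SE 0.12, edgeR adjusted p = 0.00219). Across all tested genes 7.93% were called lower and 11.2% higher at day 1, and 4.43% in either direction at day 14. Of the neuron markers, 6 of 11 were DEGs lower and none higher at day 1 and none called at day 14. Their summed level was between 8387 and 11756 CPM (sham) and 3707 and 6950 CPM (TBI) at day 1, and between 7852 and 10087 CPM (sham) and 6418 and 8078 CPM (TBI) at day 14, none of the 11 was at 0 in any sample, and their part in the result was not tested.

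The balance of the ligands was read as the ratio of Csf1 to Il34 counts in the same rat, which does not depend on library size. Counts are not corrected for transcript length, so the ratio is compared only between rats. It was 0.51 and 0.77 in sham day 1 and 1.31, 2.01, 1.53 and 1.71 in TBI day 1, so each injured rat exceeded both sham rats. It was 0.44, 0.38, 0.48 and 0.61 in sham day 14 and 0.91, 0.74, 0.59 and 1.04 in TBI day 14, where injured replicate 3 lay just below the highest sham rat. The mean log2 ratio rose from -0.67 ± 0.42 (SD, n = 2) to 0.70 ± 0.26 (SD, n = 4) at day 1, a 2.58-fold difference, in an exact two-sided permutation test with p = 0.0667, the smallest value that 15 arrangements allow. At day 14 it was -1.09 ± 0.28 in sham and -0.32 ± 0.35 in TBI (SD, n = 4 each), a 1.71-fold difference with exact permutation p = 0.0571 over 70 arrangements. Adjusted over the 2 days, both exact permutation p-values were 0.0667, and neither passed 0.05.

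**Figure D3:**
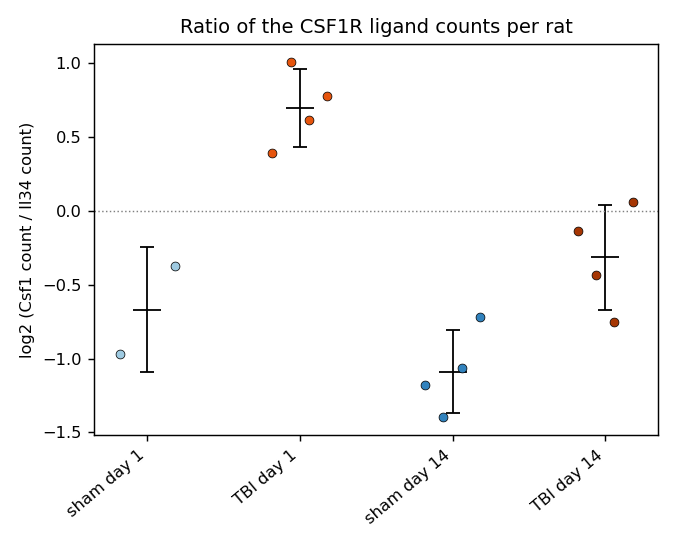
Log2 ratio of Csf1 to Il34 counts (vertical axis) in each rat of the 4 groups, with group mean and SD. The 4 TBI day 1 rats lie above 0 and both sham day 1 rats below it, and the day 14 groups overlap by 1 rat on each side.

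Spi1 was upregulated at both days, and it was a DEG under all 24 alternatives of each comparison. It was at 3.52 and 2.78 log2 CPM in sham day 1, and at 5.14, 5.05, 5.35 and 5.11 in TBI day 1. It was at 2.72, 2.55, 2.81 and 2.94 in sham day 14, and at 4.86, 4.33, 4.55 and 4.73 in TBI day 14. Injured and sham rats were separated at both days by more than the range within any of the 4 groups. The log2 fold change was 1.98 at day 1 (SE 0.22, edgeR adjusted p = 4.03e-05), or 3.96-fold, and 1.88 at day 14 (SE 0.17, edgeR adjusted p = 1.38e-05), or 3.68-fold. Their difference was -0.10 (SE 0.27, adjusted p = 0.862), which does not show that the effects were equal. Between injured groups Spi1 was lower at day 14 by 0.54 on the log2 scale (SE 0.16, edgeR adjusted p = 0.0175), a call lost without TBI day 14 replicate 2 (-0.45) or replicate 3 (-0.49).

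Irf8 had the largest increase of the 7 genes at day 14. It was at 2.99 and 2.51 log2 CPM in sham day 1, and at 3.84, 4.32, 4.38 and 4.43 in TBI day 1. At day 14 it was at 2.96, 2.33, 2.48 and 2.72 in sham and at 5.08, 4.63, 4.71 and 5.52 in TBI. Injured and sham rats did not overlap at either day, and every TBI day 14 rat lay above every TBI day 1 rat. The log2 fold change was 1.51 at day 1 (SE 0.28, edgeR adjusted p = 0.00218) and 2.41 at day 14 (SE 0.23, edgeR adjusted p = 1.52e-05), which is 2.85-fold and 5.30-fold. Both calls held in all 24 alternatives of their comparison. The TBI groups differed by 0.77 (SE 0.21, edgeR adjusted p = 0.0102), while the difference of the effects against each day's own sham was 0.89 (SE 0.34, adjusted p = 0.166) and did not pass.

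Irf5, like Csf1r, passed against its own day's sham at day 14 and not at day 1. It was at 4.60 and 4.08 log2 CPM in sham day 1 and at 4.47, 4.97, 4.98 and 4.53 in TBI day 1, with overlap. It was at 4.22, 3.87, 4.06 and 4.13 in sham day 14 and at 5.07, 5.14, 5.03 and 5.54 in TBI day 14, where the 4 injured rats lay well above the sham rats. The log2 fold change was 0.40 at day 1 (SE 0.21, edgeR adjusted p = 0.195) and 1.14 at day 14 (SE 0.17, edgeR adjusted p = 0.000721). The day 14 call held in all 24 alternatives. The day 1 value was called with all 6 sham rats of both days as 1 group (0.59, edgeR adjusted p = 0.0119). That fit called 34.4% of all tested genes at day 1, against 19.1% with the sham rats of day 1 only. The day 1 value was 0.68 (adjusted p = 0.0747) without sham day 1 replicate 1 and 0.16 (adjusted p = 0.771) without replicate 2. The difference between the days was 0.74 (SE 0.27, adjusted p = 0.138) and did not pass. Against TBI day 1, TBI day 14 was higher by 0.45 (SE 0.17, edgeR adjusted p = 0.0435), a call lost in 13 of 23 alternatives.

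Runx1 had few reads, between 19 and 216 counts per sample, and its day 1 increase was uneven between rats. It was at 1.51 and 1.06 log2 CPM in sham day 1 and at 1.61, 3.15, 2.30 and 2.74 in TBI day 1, so that replicate 1 lay just above the sham rats and the others far above. Its increase of 1.29 (SE 0.37, edgeR adjusted p = 0.0257) was no longer called without sham day 1 replicate 2 (1.07, adjusted p = 0.225), without TBI day 1 replicate 2 (1.02, adjusted p = 0.0562) or in a fit of the day 1 rats alone (1.31, adjusted p = 0.167). At day 14 the levels were 0.85, 0.32, 0.92 and 0.60 in sham and 1.36, 1.45, 1.43 and 1.37 in TBI, which did not overlap. This increase of 0.75 (SE 0.31, edgeR adjusted p = 0.278) did not pass here. It passed in a fit of the day 14 rats alone (0.78, edgeR adjusted p = 0.0377), which called 9.06% of all tested genes. Runx1 was lower in TBI day 14 than in TBI day 1 by 1.19 on the log2 scale (SE 0.29, edgeR adjusted p = 0.00514).

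The order of the 4 groups differed between the genes. Csf1r ran from sham day 1 through sham day 14 and TBI day 1 to TBI day 14, and only the last step passed the test. The step from sham day 14 to TBI day 1 passed in a fit of those groups alone (0.38, adjusted p = 0.0337). Irf8 and Irf5 ran from sham day 14 through sham day 1 and TBI day 1 to TBI day 14, with the sham groups not differing by the test. For Irf8 each injured group passed against the group before it, and for Irf5 TBI day 1 did not pass against sham day 1. Csf1, Spi1 and Runx1 ran from sham day 14 through sham day 1 and TBI day 14 to TBI day 1. In that order the neighbours sham day 1 and TBI day 14 differed for Spi1 (1.44, edgeR adjusted p = 0.000801) and not for Csf1 (0.57, adjusted p = 0.0849) or Runx1 (0.11, adjusted p = 0.86), in a comparison added after seeing the data that called 22.0% of all tested genes. Il34 was lowest in TBI day 1 and highest in sham day 14, and none of its neighbours in that order differed by the test.

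Between the injured groups 4 members were higher and 2 lower at day 14 than at day 1, and Csf1, at -0.43 (SE 0.18, edgeR adjusted p = 0.071), did not pass. Across all tested genes 17.6% were higher and 21.9% lower. The injured groups did not overlap for those 6 members, against 16.7% of all tested genes without overlap and higher, and 19.1% without overlap and lower. Csf1 passed without TBI day 1 replicate 1 (-0.54) or TBI day 14 replicate 4 (-0.60). Against the 4 sham day 14 rats, TBI day 1 had 5 members higher and Il34 lower, by 0.67 on the log2 scale (SE 0.12, edgeR adjusted p = 0.000488), where 25.0% of all tested genes were higher and 21.0% lower. The member that did not pass there was Csf1r (0.37, SE 0.19, edgeR adjusted p = 0.119). No member was called between the sham groups by edgeR, limma-voom or DESeq2, and none had an unadjusted p-value under 0.05 in any of the 3, although 19.1% of all tested genes were called. The lowest adjusted p-value there was 0.152, for Spi1 (0.44, SE 0.21).

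The CSF family had 9 tested ligands, receptors and binding partners, of which Csf1r, Csf1 and Il34 are described above. Of the 6 others, 4 were higher at day 1 and 3 at day 14, none was lower, and their median log2 fold changes were 1.79 and 1.05. Across all tested genes 11.2% were higher and 7.93% lower at day 1, and 4.07% and 0.365% at day 14. Csf2rb, the signaling subunit of the GM-CSF and IL-3 receptors, rose by 5.0 on the log2 scale at day 1 (edgeR adjusted p = 1.26e-05) and by 2.91 at day 14 (adjusted p = 0.000106). Its mean level went from 1.28 to 6.28 log2 CPM at day 1. Csf3r, the G-CSF receptor, rose by 2.05 and 1.79, and Csf2ra, the GM-CSF binding subunit, rose by 1.53 at day 1 and stood at 0.47 without passing at day 14. Sdc1, a proteoglycan that can bind IL-34, rose by 5.25 at day 1 and by 1.63 at day 14. The difference between days was itself called for Csf2rb (adjusted p = 0.0457) and Sdc1 (adjusted p = 0.00437). Ptprz1, the other IL-34 receptor, and Il3ra did not pass at either day, and the cytokines Csf2, Csf3 and Il3 had at most 3 counts in any sham rat and were not tested.

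**Figure D4:**
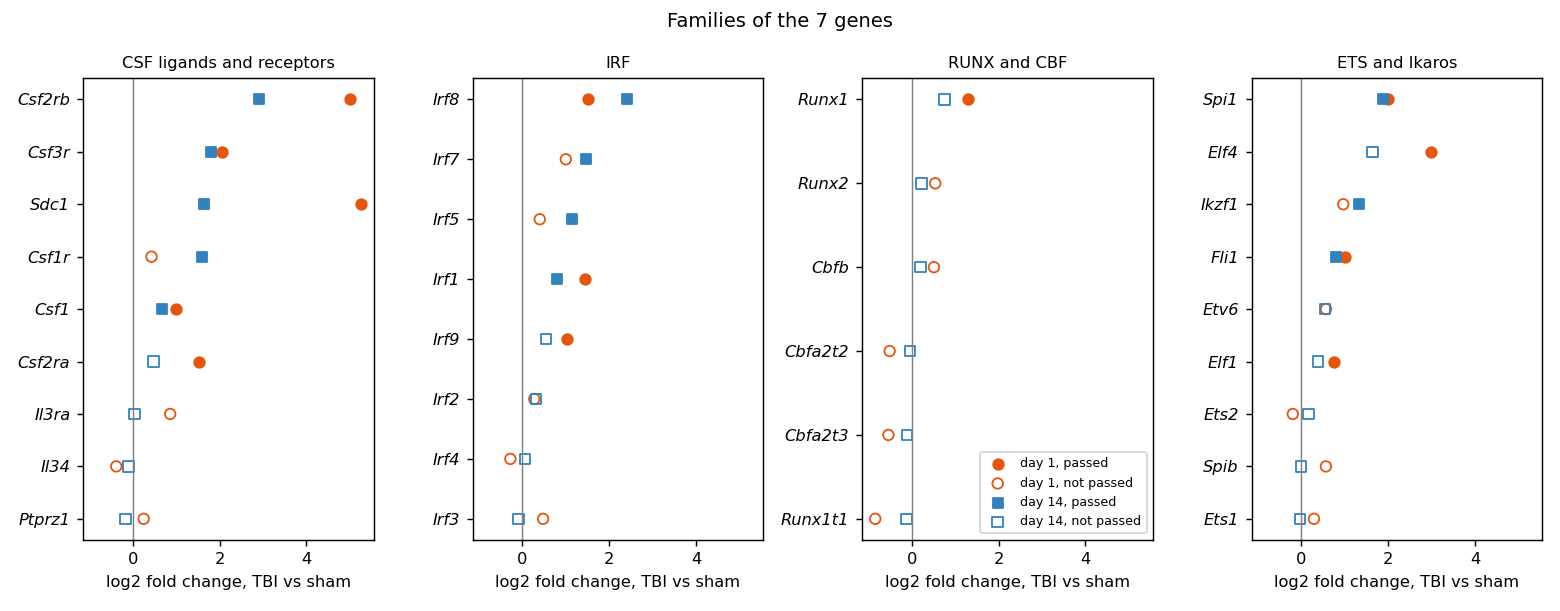
Log2 fold change of TBI over sham (horizontal axes) at day 1 and day 14 for tested genes of 4 lists, filled where the edgeR test passed. Runx3 is left out because its sham counts were 0 to 3. Csf2rb and Sdc1 reach 5.0 and 5.25 at day 1, and no gene shown passed in the lower direction.

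Signaling genes downstream of CSF1R were upregulated in part. Of 20 tested, 12 were higher at day 1 and 11 at day 14, and none was lower at either day. Of all tested genes, 11.2% were higher and 7.93% lower at day 1, and 4.07% and 0.365% at day 14. The median log2 fold change of the 20 was 1.21 and 0.96. Rac2, a small GTPase of blood cells, rose by 2.65 and 2.13, Tyrobp, the adaptor DAP12, by 2.36 and 2.00, and Vav1, a guanine nucleotide exchange factor, by 2.27 and 2.14 (edgeR adjusted p between 9.39e-06 and 0.000229 for these 3 genes at both days). Fyn, Src, Grb2, Sos1, Gab2, Pik3cd, Pik3r1 and Akt1 passed at neither day. Their values ran from -0.60 (Sos1) to 0.50 (Pik3cd) at day 1 and from -0.07 (Gab2) to 0.58 (Pik3cd) at day 14. Among 7 other class III receptor tyrosine kinases and ligands none was higher, and Kit (-0.98) and its ligand gene Kitlg (-0.98) fell at day 1, with list medians of -0.24 and -0.21.

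Of the 9 interferon regulatory factor genes, 3 were higher at day 1 and 4 at day 14 and none was lower. The medians were 0.48 and 0.55. Of the 7 left without Irf8 and Irf5, 2 were higher at day 1 and 2 at day 14, with medians of 0.48 and 0.41. The share over all tested genes was 11.2% higher at day 1 and 4.07% higher at day 14. Besides Irf8 and Irf5, Irf1 rose at both days (1.43 and 0.80), Irf9 rose at day 1 (1.04) and Irf7 at day 14 (1.47). Irf9 at day 14 (0.55) and Irf7 at day 1 (1.00) did not pass, nor did Irf2, Irf3 and Irf4 at either day. Of the 7 RUNX genes and their partners, Runx1 included, 2 were higher at day 1 and none at day 14. The medians were 0.51 and 0.20, the latter 0.08 without Runx3. Without Runx1, 1 of the 6 others was higher at day 1 and none at day 14, with medians of -0.0034 and 0.08. Runx3 had 3 and 0 counts in sham day 1 and 26, 106, 88 and 53 counts in TBI day 1, at least 22.4-fold higher against a floor of 3 counts per library. It was at 0 to 4 counts in every day 14 rat. The remaining tested genes of the list, Runx2, Cbfb, Runx1t1, Cbfa2t2 and Cbfa2t3, did not pass. With median-of-ratios scaling 1 gene of the list was lower at day 1.

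The share of all tested genes called higher was 11.2% at day 1 and 4.07% at day 14. Of 9 ETS and Ikaros factor genes of blood cells, Spi1 included, 4 were higher at day 1 and 3 at day 14. None was lower, and the medians were 0.76 and 0.55. Of the 8 left without Spi1, 3 were higher at day 1 and 2 at day 14, with medians of 0.66 and 0.47. Elf4 rose by 2.99 at day 1 and stood at 1.64 without passing at day 14. Fli1 rose at both days (1.00 and 0.79), Elf1 at day 1 (0.76) and Ikzf1 at day 14 (1.32), while Ets1, Ets2, Etv6 and Spib did not pass at either day. Of 19 other myeloid transcription factor genes, 10 were higher at day 1 and 8 at day 14 and none was lower, with medians of 0.75 and 0.61. Cebpd, an acute-phase factor, rose by 2.32 and 0.93. Tfec had 0 and 4 counts in sham day 1 against 28 to 50 in TBI day 1, and Batf3 had 3 and 0 against 14 to 26. At day 14 Tfec had 0 to 2 counts in sham and 4 to 12 in TBI, and Batf3 had 2 to 8 and 38 to 50. Sall1, which keeps microglial identity and was singled out after its values were seen, was at -0.17 at day 1 and rose by 1.07 at day 14, and the difference between days passed (edgeR adjusted p = 0.0083).

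The list counts at day 1 depended on the sham rats, and so did the calls over all tested genes. Without sham day 1 replicate 2, fewer of all tested genes were called. Higher calls were then fewer in the CSF family, the signaling genes, the interferon regulatory factors, the RUNX list, the ETS list and the other myeloid factors. Without sham day 1 replicate 1, the rat with choroid plexus signal, more of all tested genes were called. Higher calls then went up in the ETS list, down among the other myeloid factors and stayed the same in the rest of these lists. List counts include the members that belong to a list. Kit and Kitlg were no longer called without sham day 1 replicate 2, and without replicate 1 the class III list gained a higher call. At day 14, without any 1 rat, higher calls ran from 3 to 5 in the CSF family, 8 to 12 among signaling genes and 3 to 4 among interferon regulatory factors. They were 0 in the RUNX list, 2 to 4 in the ETS list and 7 to 8 among the other myeloid factors.

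Markers of microglia and of other myeloid cells were in part higher in injured rats, and which ones were higher differed between the days. Of all tested genes, 11.2% were higher and 7.93% lower at day 1, and 4.07% and 0.365% at day 14. The 11 microglia markers in the table summed to 378 to 608 CPM (sham) and 732 to 994.5 CPM (TBI) at day 1 and to 428 to 558 CPM (sham) and 854 to 1534 CPM (TBI) at day 14, and none was at 0 in any sample. At day 1, 4 of the 11 were higher and 2 lower, with Aif1 (1.33) and Itgam (2.64) rising and P2ry12, a receptor of resting microglia, falling by 0.88. At day 14, 8 of 11 were higher, with Aif1 at 1.28, Itgam at 1.75 and P2ry12 at 1.25. The 8 markers of infiltrating monocytes and neutrophils in the table summed to 86.0 to 156 CPM (sham) and 688 to 1094 CPM (TBI) at day 1 and to 101 to 133 CPM (sham) and 113 to 244 CPM (TBI) at day 14. All 7 that were tested rose at day 1 and 2 at day 14. S100a8 was at 0 in 3 of the 14 samples and at 5 counts or fewer in every sham rat. The 7 perivascular macrophage markers summed to 8.76 to 16.3 CPM (sham) and 43.2 to 70.2 CPM (TBI) at day 1 and to 6.91 to 10.3 CPM (sham) and 12.1 to 35.2 CPM (TBI) at day 14, with 4 higher at day 1 and 1 at day 14. The 9 lymphocyte markers summed to at most 21.6 CPM in any sample, and Cd3d and Ms4a1 had at most 5 counts. The marker counts at day 1 also changed with the sham rats, as did the calls over all tested genes. Without sham day 1 replicate 1, where more of all tested genes were called, more microglia and perivascular markers were higher and more neuron markers lower. Fewer microglia markers were then lower and fewer infiltrating markers higher. Without replicate 2, where fewer of all tested genes were called, fewer microglia, infiltrating and perivascular markers were higher and fewer neuron markers lower. The part of these cell types in the results was not tested.

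Set against the mean log2 CPM of the 11 microglia markers in the same rat, the genes separated. Differences from that mean are read only between rats, since transcript lengths were not used. For Csf1r the difference was 2.26 in sham day 1, 2.27 in TBI day 1, 2.46 in sham day 14 and 2.89 in TBI day 14, and the day 14 groups did not overlap (2.38 to 2.52 and 2.78 to 2.96). For Irf5 it was -0.60, -0.65, -0.77 and -0.78 in the same order, with overlap at both days. Csf1r and Irf5 thus rose at day 14 where the marker level rose from 4.84 to 5.98, and Irf5 by an amount close to that of the markers. For Spi1 the difference was -1.79, -0.23, -2.08 and -1.36, and for Irf8 -2.19, -1.15, -2.21 and -0.99, higher in injured rats at both days. For Il34 it was 0.74, -0.09, 1.13 and -0.11, for Csf1 0.07, 0.61, 0.05 and -0.42, and for Runx1 -3.65, -2.94, -4.16 and -4.57. At day 1 the markers in this mean moved in opposite directions, 4 higher and 2 lower, from 2.64 for Itgam to -1.90 for Tmem119. The day 1 differences thus depend on which markers are in the list. These are descriptions without a test.

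**Figure D5:**
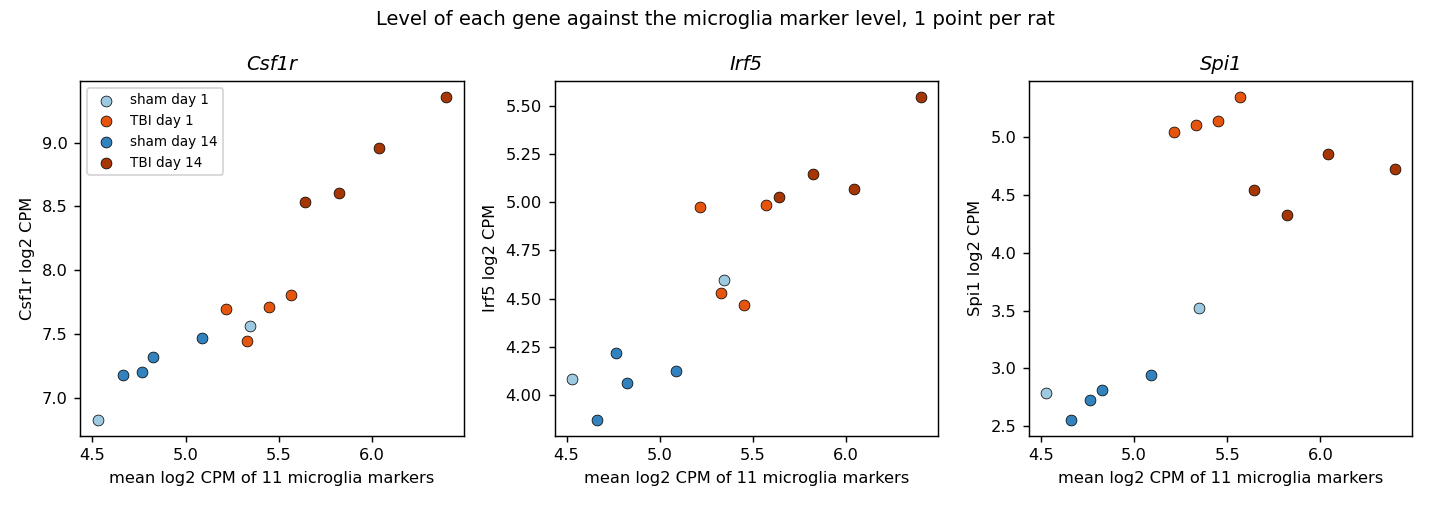
Level of Csf1r, Irf5 and Spi1 (log2 CPM, vertical axes) against the mean log2 CPM of 11 microglia markers (horizontal axes), 1 point per rat. Csf1r and Irf5 go up with the markers across the groups, while the TBI day 1 rats hold the highest Spi1 levels at middle marker levels.

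The members fell into different company when likeness was measured as Pearson's r of log2 CPM over the 14 rats. These values describe libraries that share the injury, the day and the sequencing, and carry no test. Among the members the highest values were for Irf8 with Irf5 (0.94), Csf1r with Irf5 (0.89), Csf1 with Spi1 (0.88) and Csf1r with Irf8 (0.87). The value was 0.14 for Csf1r with Runx1, -0.63 for Csf1 with Il34 and -0.75 for Il34 with Runx1. Over all tested genes the 3 most like Csf1r were Laptm5, Ctsd and C2 (0.98, 0.97 and 0.97), the first of them a lysosomal membrane protein gene of blood cells and the second that of the protease cathepsin D. Csf1 was most like B4galt5 and Tlr6 (0.96 each), and Il34 like Apbb1, St3gal3 and Hes5 (0.94, 0.94 and 0.93). Spi1 was most like Serping1, Rac2 and Tyrobp (0.99, 0.98 and 0.98), the last 2 from the signaling list above. Irf8 was most like Dock8, Cd68 and Unc93b1 (0.98, 0.98 and 0.98), Irf5 like RT1-Ba, Mpeg1 and Irf8 (0.94 each) and Runx1 like Elf4, Ier3 and Tfe3 (0.95, 0.94 and 0.94).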

How the data were processed

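RNA-seq counts of 14 hippocampus samples were used. The authors prepared stranded mRNA libraries, sequenced single-end 50-base reads, aligned them to rn5 with STAR 2.4.2a and counted UCSC genes with featureCounts 1.5.0 (versions from the submitters' processing notes), and the deposited values are whole-number counts without normalization. H3K4me3 peak lists of 8 further samples were not used here, because no rn5 annotation was at hand.

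Groups came from the sample labels, which give 4 sham rats at day 14. The test was edgeR 4.0.16 (R 4.3.3) with TMM scaling, its default filter on low counts, and a quasi-likelihood model of the 4 groups fitted to all 14 samples. P-values are two-sided, adjusted by the Benjamini-Hochberg method over 12875 genes, with a threshold of 0.05. The ligand ratio used a prior of 0.5 and an exact permutation test. Alternatives were limma-voom (limma 3.58.1, the authors' own choice of test), DESeq2 1.42.0, other scaling and filters, fewer or pooled groups, covariates and each sample left out. The edgeR, limma and DESeq2 steps were tested on simulated data, with 100 genes changed by 1 on the log2 scale and 100 by 2. Of the changes by 1, edgeR recovered 48 at day 1 and 70 at day 14, limma-voom 48 and 67, and DESeq2 63 and 76. Of the changes by 2, edgeR recovered 85 and 92. False calls numbered 4 and 10 with edgeR, 5 and 6 with limma-voom, and 33 and 30 with DESeq2.

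The genes followed and the gene lists were chosen with earlier results of these data known. Named genes were the 7 members, the 3 genes most correlated with each, up to 4 passing genes with the largest change from each pathway list, list genes of the members' families, and up to 3 markers in list order. Some genes that this rule covers are not reported here. Figures were drawn with matplotlib.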

Additional observations from a re-analysis of the deposited data

Results flagged for a closer look

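The Il34 level of TBI day 1 replicate 3 stood apart from the other 3 injured rats of that day. It was 5.48 log2 CPM against 5.23 to 5.26 in the others, and its gap to the nearest was 0.877 of the range of the group, past Dixon's 95% limit for 4 samples. The check was made for each of the 7 genes in every group of 4 rats, and this was the only flag. Chance alone puts about 1 in 20 such checks past that limit. The TBI effect on Csf1r differed between the days by 1.17 on the log2 scale (edgeR adjusted p = 0.0387), the only such difference called among the 7 genes.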

How the results depend on the processing

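Spi1 and Irf8 at day 1, and Csf1r, Spi1, Irf8 and Irf5 at day 14, kept direction and call in all 24 alternatives of their comparison. The number of members called between TBI day 14 and TBI day 1 went from 6 to 3 at an adjusted p-value under 0.01. The number called for the difference between days went from 1 to 0 with limma-voom, with the choroid plexus covariate and at an adjusted p-value under 0.01, and was 0 to 1 without 1 sample. Between the sham groups it was 0 to 1 without 1 sample, the 1 being Spi1 (0.76) without sham day 1 replicate 2. The day 14 ligand ratio difference was 0.65 to 0.92 without 1 sample, and the highest, without TBI day 14 replicate 3, had an exact permutation p of 0.0286 that was not adjusted over the 2 days.

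Directions that turned all belonged to differences near 0. Without sham day 1 replicate 2, sham day 1 against sham day 14 became 0.26 for Csf1r (from -0.47 over the fits without 1 sample) and -0.0093 for Csf1 (up to 0.22), the difference between days 0.23 for Spi1 (down to -0.52), and TBI day 14 against sham day 1 -0.11 for Runx1 (up to 0.36). Without sham day 1 replicate 1 the sham comparison became -0.13 for Irf8 (up to 0.35), and without sham day 14 replicate 4 it became 0.0049 for Csf1r. The cause was not tested. Where a sham day 1 rat was left out, the remaining one was assumed to vary like the other groups.

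Deviations from the group means were correlated between same-numbered samples of different groups, and 5 of 18 pairs had a correlation over 0.1. Between sham and TBI of the same day it was 0.13 and 0.07 for day 1 replicates 1 and 2. For day 14 replicates 1 to 4 it was -0.04, 0.13, 0.24 and 0.12. Between days the only pair over 0.1 was TBI day 1 with sham day 14, replicate 1 (0.24). Whether same-numbered samples shared a processing step was not tested. With the replicate block, day 1 had 3 members higher, Runx1 no longer passing (1.23, adjusted p = 0.0625), and Il34 lower (-0.45, adjusted p = 0.0474). Irf5 no longer passed between the TBI groups (0.45, adjusted p = 0.0747), and the day 14 count stayed at 5. Over all alternatives the higher calls ran from 4 to 6 (day 1) and 3 to 5 (day 14) in the CSF family, 8 to 13 and 8 to 12 among signaling genes, 2 to 5 and 3 to 6 among interferon regulatory factors, 1 to 3 and 0 to 1 in the RUNX list, 1 to 7 and 1 to 4 in the ETS list and 5 to 13 and 6 to 11 among other myeloid factors. The share of all tested genes called ran from 5.12% to 34.4% at day 1 and from 3.11% to 9.06% at day 14 over the alternatives. Of the 7 members, Runx1 had the fewest counts, 19 to 216 per sample.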
